A study of Mus musculus with 6 samples.

Results

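The 9 genes described here encode the TAM receptors, their ligands and other proteins that let a phagocyte recognise phosphatidylserine, the lipid that dying cells expose on their surface. They are Mertk, Axl and Tyro3 (receptors), Gas6 and Pros1 (ligands), Mfge8 (another bridging protein), and Havcr2, Cd300a and Cd300lf (other phosphatidylserine receptors). They were chosen by gene symbol and are 9 of the 56691 genes in the deposited table, each with 1 row, and all 9 had enough reads to be tested. The 5-HT group was 3 libraries of Kupffer cells (macrophages that reside in the liver sinusoids) after treatment with 5-HT, which is serotonin. The untreated group was 3 libraries of Kupffer cells without it. All 6 libraries came from Vil1Cre-Myd88fl/fl mice, which carry a floxed Myd88 allele and a Cre recombinase driven by the promoter of villin, a gene of the intestinal epithelium. Both groups therefore share this genotype, and there was no group without it. Library names begin with 5-HT in the first group and with KO in the second. The sources used here do not state the age of the mice, how 5-HT was given, at what dose or for how long, or how many animals a library stands for. The p-values then measure only the spread among these libraries, part of which may be technical.

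TAM receptors are receptor tyrosine kinases of macrophages and other cells. Gas6 and protein S, the product of Pros1, hold phosphatidylserine at one end, through a domain that needs vitamin K-dependent carboxylation, and bind the receptor at the other, so that a dying cell is tethered, engulfed and cleared without inflammation. In the liver, Mertk is known as an uptake receptor of Kupffer cells, and Gas6 is made by several cell types, among them macrophages, endothelial cells and stellate cells.

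Total counts per library ran from 15390956 to 19050039, and the 9 genes had between 47 counts (Tyro3) and 16497 counts (Pros1) in a library. The floxed gene Myd88 had 28.8 to 30.1 FPKM in 5-HT libraries and 14.4 to 20.2 FPKM in untreated libraries. It was itself higher with 5-HT (log2 fold change 0.71, edgeR adjusted p = 0.0286). Both groups share the genotype, and the cause of this difference was not tested. FPKM divides a gene's fragments by its exonic length and by the library's total, so it can be compared between genes. The 15 Kupffer cell markers checked were all present in every library, led by Cd5l (on average 362 FPKM in 5-HT and 214 FPKM in untreated libraries) and Clec4f (284 FPKM in 5-HT and 182 FPKM in untreated libraries). The 14 endothelial markers were also abundant, led by Clec4g (536 FPKM in 5-HT and 691 FPKM in untreated libraries) and Lyve1 (887 FPKM in 5-HT and 257 FPKM in untreated libraries), and their summed level was above that of the Kupffer cell list in every library. The labelled cell type was therefore present together with a strong endothelial signal. The libraries are bulk RNA, in which fewer cells of a type and less RNA per cell cannot be told apart, and which cells gave the reads of the 9 genes was not tested.

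Upstream sequence of the ligand genes Gas6 and Pros1 is given because these carry the main result, the fall of Gas6, beside a difference in its paralog that did not pass the test. Each run is the 250 bases before the RefSeq gene start on GRCm38.p6, read 5′ to 3′ on the strand of the gene, with capitals marking each GC box (GGGCGG or its reverse complement CCGCCC).
Gas6, chr8:13494536-13494785, minus strand: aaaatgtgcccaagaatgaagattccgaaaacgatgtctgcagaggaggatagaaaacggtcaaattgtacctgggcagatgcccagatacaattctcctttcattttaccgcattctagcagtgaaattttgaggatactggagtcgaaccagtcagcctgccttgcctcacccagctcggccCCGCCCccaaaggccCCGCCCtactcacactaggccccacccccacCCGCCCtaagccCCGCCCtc
Pros1, chr16:62854057-62854306, plus strand: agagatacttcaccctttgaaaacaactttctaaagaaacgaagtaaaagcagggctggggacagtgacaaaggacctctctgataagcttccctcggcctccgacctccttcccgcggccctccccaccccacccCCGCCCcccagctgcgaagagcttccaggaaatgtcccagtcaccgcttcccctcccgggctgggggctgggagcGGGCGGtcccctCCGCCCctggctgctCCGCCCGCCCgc
Gas6 held 4 GC boxes, at 66, 51, 20 and 8 bases before the start, and Pros1 held 5, of which the 2 nearest the start overlap. At least 1 GC box was found in 32.7% of the 32851 promoter windows of the same length, so its presence does not set these genes apart. The GAS motif TTCNNNGAA, the letters of a STAT site, was found in Pros1 and in 7.02% of all windows, and not in Gas6. Neither ligand gene held the AP-1 motif TGANTCA, the CRE motif TGACGTCA, the E-box CACGTG or the TATA box TATAAA on either strand. All 9 genes were matched in the RefSeq table.

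Among the ligands, Gas6 was lower with 5-HT. Gas6, the ligand that binds all the TAM receptors, had 87.5, 104 and 96.7 FPKM in 5-HT replicates 1 to 3, against 170, 179 and 150 FPKM in untreated replicates 1 to 3. The groups did not overlap, and the highest 5-HT library lay well below the lowest untreated one. Its mean was 96.2 ± 8.36 FPKM with 5-HT and 166 ± 14.5 FPKM untreated (SD, n = 3 each), a log2 fold change of -0.78 (SE 0.11, 95% interval -1.04 to -0.53, edgeR adjusted p = 0.00777). The 5-HT level was thus 0.582 of the untreated level. In GRCm38, Gas6 (ENSMUSG00000031451) spans 13465374 to 13494490 of chromosome 8 on the minus strand. It was the only one of the 9 genes past the threshold of an adjusted p of 0.05: 1 of 9 fell and 0 rose, where 3.19% of the 16641 genes tested fell and 4.55% rose. At an unadjusted edgeR p under 0.05, 2 more of the 9 genes passed (Cd300a and Cd300lf, both higher). Such p-values were common: these genes ranked 2462 and 2661 by p among the 16641 genes tested. An edgeR p of 0.051 ranked 4045. DESeq2 and limma on log2(FPKM + 1) also gave 0 rises and 1 fall among the 9 genes. Over all genes tested, DESeq2 called 1241 higher and 1018 lower, and limma 674 and 481. The call of Gas6 was lost without untreated replicate 1 (log2 -0.77, edgeR adjusted p = 0.0507), the highest adjusted p of 18 alternatives that reached down to 1.43e-09 (DESeq2). Its 34 exonic bases shared with Tmem255b, a gene on the other strand with 3 to 12 counts per library, add little to the 3565 to 8313 counts of Gas6.

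**Figure D1:**
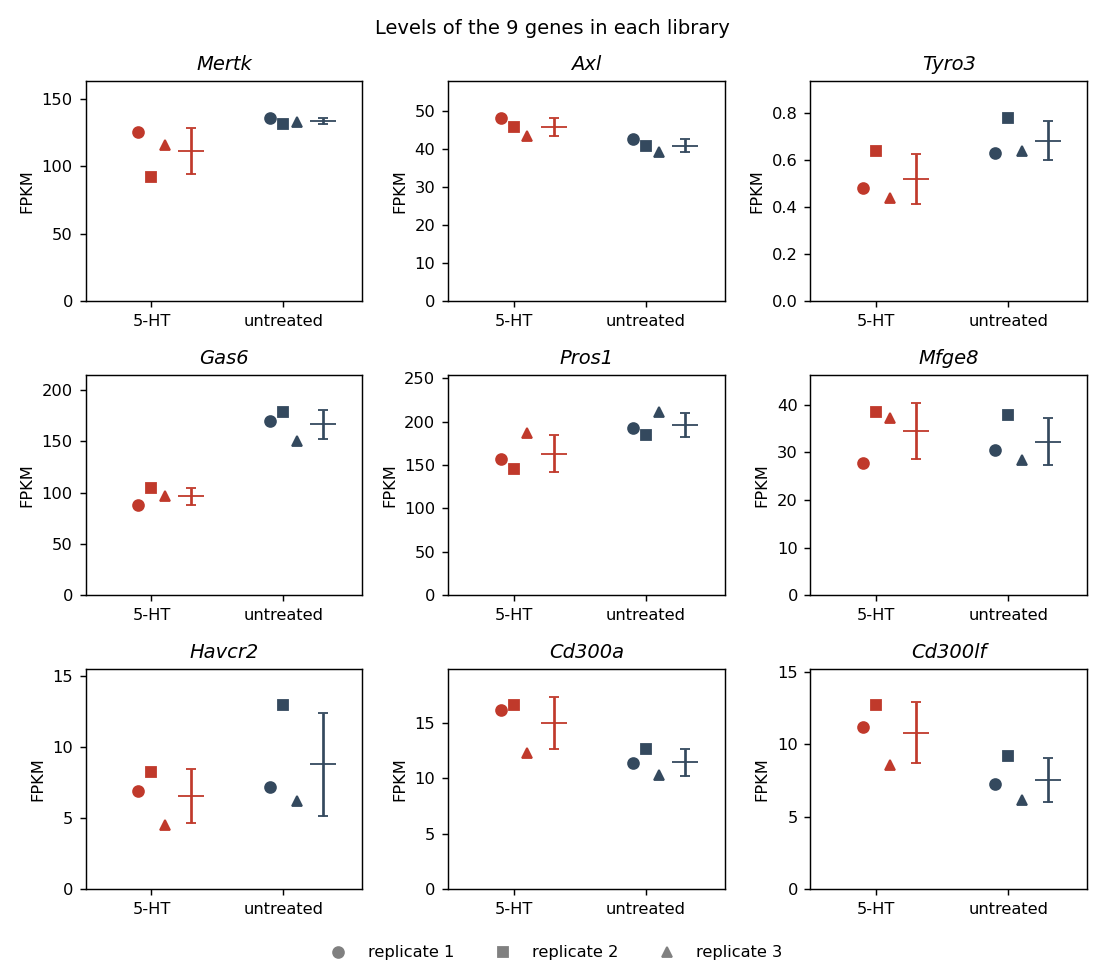
FPKM (vertical axes, from 0) of each of the 9 genes in the 5-HT libraries (red) and the untreated libraries (dark), with 1 marker shape per replicate number and the mean ± SD of the group (n = 3) at the right of its points. Gas6 is separated by the widest margin, with 5-HT libraries from 87.5 to 104 FPKM and untreated libraries from 150 to 179 FPKM.

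Pros1 had the highest level of the 9 genes in both groups. It encodes protein S, which also circulates as an anticoagulant cofactor. Pros1 had 157, 146 and 187 FPKM in 5-HT replicates 1 to 3, against 193, 185 and 212 FPKM in untreated replicates 1 to 3. The groups overlapped narrowly, through 5-HT replicate 3 and untreated replicate 2. The log2 fold change was -0.26 (SE 0.13, 95% interval -0.57 to 0.04, edgeR adjusted p = 0.274), so the data leave room for a fall to 0.674 of the untreated level as well as for no change. Pros1 (ENSMUSG00000022912) lies on chromosome 16 from 62854307 to 62929346, plus strand.

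The sum of both ligand genes was 245, 250 and 283 FPKM in 5-HT libraries and 363, 364 and 362 FPKM in untreated libraries. The untreated sums differed by less than either gene alone, since untreated replicate 3 had the lowest Gas6 and the highest Pros1 of its group. Gas6 made up 35.8%, 41.7% and 34.1% of the summed ligand FPKM in 5-HT replicates 1 to 3, against 46.7%, 49.2% and 41.5% in untreated replicates 1 to 3. These shares overlapped by a narrow margin, at 5-HT replicate 2 and untreated replicate 3.

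Mertk, the main TAM receptor gene of resident macrophages, was the most abundant of the 3 receptor genes in every library. It had 125, 92.0 and 116 FPKM in 5-HT replicates 1 to 3, against 136, 132 and 133 FPKM in untreated replicates 1 to 3. All 5-HT libraries lay below all untreated ones, and 5-HT replicate 2 was lowest. Its log2 fold change of -0.26 did not pass (SE 0.13, 95% interval -0.56 to 0.04, edgeR adjusted p = 0.272), and was -0.14 without 5-HT replicate 2 (edgeR adjusted p = 0.434, with 0.183 to 0.498 over all alternatives). Mertk (ENSMUSG00000014361) lies on chromosome 2 from 128698956 to 128802894, plus strand.

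Axl, the TAM receptor that depends on Gas6 and is known to be raised by inflammatory signals, did not overlap between groups either, in the other direction. Its level was 48.2, 45.8 and 43.5 FPKM in 5-HT replicates 1 to 3, against 42.7, 40.9 and 39.1 FPKM in untreated replicates 1 to 3. The gap between the lowest 5-HT library and the highest untreated library was under 1 FPKM. The log2 fold change was 0.17 (SE 0.08, 95% interval -0.03 to 0.37, edgeR adjusted p = 0.272), so a rise beyond 1.29-fold lay outside the interval. Axl (ENSMUSG00000002602) lies on chromosome 7 from 25757273 to 25788705, minus strand. Of the 9 genes, 3 (Gas6, Mertk and Axl) had FPKM values that did not overlap between the groups, as did 29.6% of all genes tested.

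Tyro3, the TAM receptor best known from the nervous system, was near the lower end of what was measured. It had 0.480, 0.640 and 0.440 FPKM in 5-HT replicates 1 to 3, against 0.630, 0.780 and 0.640 FPKM in untreated replicates 1 to 3, from 47 to 88 counts per library. The groups met at 0.640 FPKM, and the log2 fold change was -0.38 (SE 0.23, 95% interval -0.93 to 0.16, edgeR adjusted p = 0.369). At this depth a fall to 0.526 of the untreated level could not be told from no change. Tyro3 (ENSMUSG00000027298) lies on chromosome 2 from 119797733 to 119818104, plus strand.

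Mertk held 72.0%, 66.5% and 72.5% of the summed FPKM of the 3 receptor genes in 5-HT replicates 1 to 3, against 75.8%, 75.95% and 76.95% in untreated replicates 1 to 3. Axl held 27.7%, 33.1% and 27.2% in the 5-HT replicates, against 23.8%, 23.6% and 22.7% in the untreated replicates. For both genes the shares did not overlap between groups. Tyro3 held under 1% throughout, so the shares of Mertk and Axl mirror each other and count as 1 observation. It is the same comparison as the ratio of Axl over Mertk tested below.

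**Figure D2:**
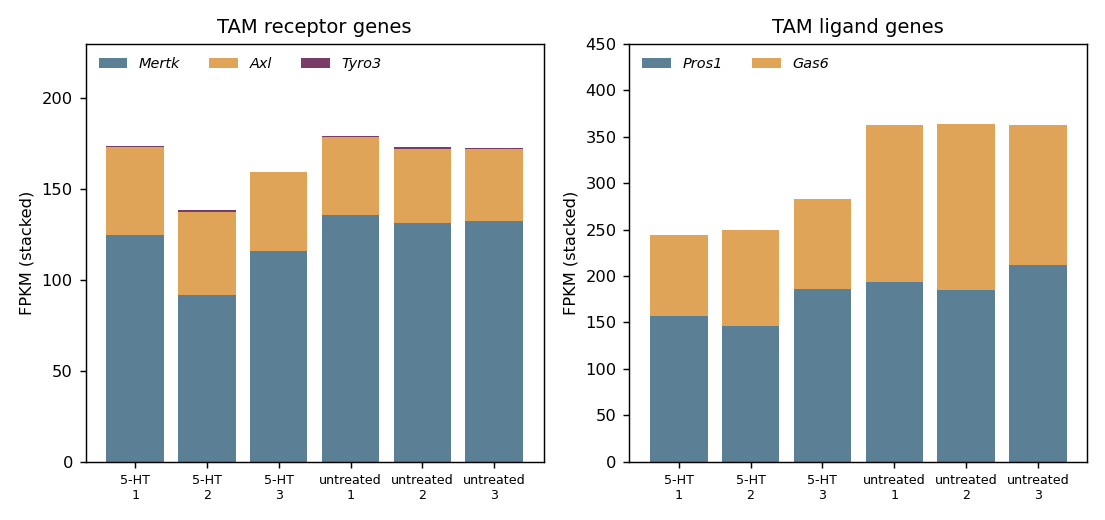
Stacked FPKM of the 3 TAM receptor genes (left) and the 2 TAM ligand genes (right) in each of the 6 libraries, both axes from 0. The receptor sums ran from 138 to 174 FPKM in 5-HT libraries and from 173 to 179 FPKM in untreated libraries; the ligand sums ran from 245 to 283 FPKM in 5-HT libraries and from 362 to 364 FPKM in untreated libraries.

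Ratios within a library do not depend on how libraries are scaled, and 5 were compared between groups by an exact two-sided permutation test, for which 3 against 3 libraries cannot go below p = 0.1. The log2 ratio of Mfge8 over Gas6 averaged -1.49 ± 0.148 with 5-HT and -2.38 ± 0.119 untreated (SD, n = 3 each; exact permutation p = 0.1). Axl over Mertk averaged -1.27 ± 0.224 with 5-HT and -1.71 ± 0.0493 untreated (SD, n = 3 each; exact permutation p = 0.1). Neither of these overlapped between groups, and each p is the smallest the design allows. Gas6 over Pros1 averaged -0.76 ± 0.243 with 5-HT and -0.24 ± 0.228 untreated (exact permutation p = 0.2). Gas6 over Mertk averaged -0.20 ± 0.352 with 5-HT and 0.31 ± 0.132 untreated (exact permutation p = 0.2). Cd300lf over Cd300a averaged -0.48 ± 0.0815 with 5-HT and -0.62 ± 0.136 untreated (exact permutation p = 0.3). Adjusted over the 5 ratios, the p was 0.25 for each of the first 4 and 0.3 for the last (permutation test with Benjamini-Hochberg adjustment). These tests did not show that the change of Gas6 differed from that of Pros1 or Mertk.

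Mfge8 encodes a secreted protein that links phosphatidylserine to integrins rather than to TAM receptors. It had 27.8, 38.6 and 37.2 FPKM in 5-HT replicates 1 to 3, against 30.5, 37.8 and 28.4 FPKM in untreated replicates 1 to 3. Both groups covered the same range, and the log2 fold change was 0.11 (SE 0.16, 95% interval -0.26 to 0.48, edgeR adjusted p = 0.729). Mfge8 (ENSMUSG00000030605) lies on chromosome 7 from 79133768 to 79149060, minus strand.

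Cd300a and Cd300lf encode immunoglobulin-fold receptors of myeloid cells that bind phospholipids of dying cells and can inhibit the cell that carries them. Cd300lf had 11.2, 12.7 and 8.56 FPKM in 5-HT replicates 1 to 3, against 7.28, 9.17 and 6.17 FPKM in untreated replicates 1 to 3. Its groups overlapped through 5-HT replicate 3 and untreated replicate 2. The log2 fold change of 0.53 did not pass (SE 0.18, 95% interval 0.11 to 0.94, edgeR adjusted p = 0.12). Cd300a had 16.2, 16.6 and 12.35 FPKM in 5-HT replicates 1 to 3, against 11.4, 12.7 and 10.3 FPKM in untreated replicates 1 to 3. Its groups overlapped through the same libraries. The log2 fold change of 0.40 did not pass either (SE 0.13, 95% interval 0.10 to 0.70, edgeR adjusted p = 0.108), but did without 5-HT replicate 3 (log2 0.52, edgeR adjusted p = 0.0372, with 0.0316 to 0.301 over all alternatives). Both single-gene intervals exclude 0 while the p adjusted over all genes misses the threshold.

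Havcr2 encodes Tim-3, a receptor of myeloid and T cells that binds phosphatidylserine and galectin-9. It had 6.88, 8.26 and 4.49 FPKM in 5-HT replicates 1 to 3, against 7.19, 12.9 and 6.19 FPKM in untreated replicates 1 to 3. Untreated replicate 2 stood above the other 5 libraries, and the groups overlapped. The log2 fold change was -0.41 (SE 0.31, 95% interval -1.14 to 0.31, edgeR adjusted p = 0.475), and -0.04 without untreated replicate 2 (edgeR adjusted p = 0.949, with 0.204 to 0.949 over all alternatives). In both groups Cd300a, Cd300lf and Havcr2 were highest in replicate 2 and lowest in replicate 3. The 7 monocyte markers, among them Plac8 and Chil3, were also highest in replicate 2 of each group. They summed to 257, 386 and 169 FPKM in 5-HT replicates 1 to 3 and to 194, 344 and 200 FPKM in untreated replicates 1 to 3. Their part in these results was not tested.

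**Figure D3:**
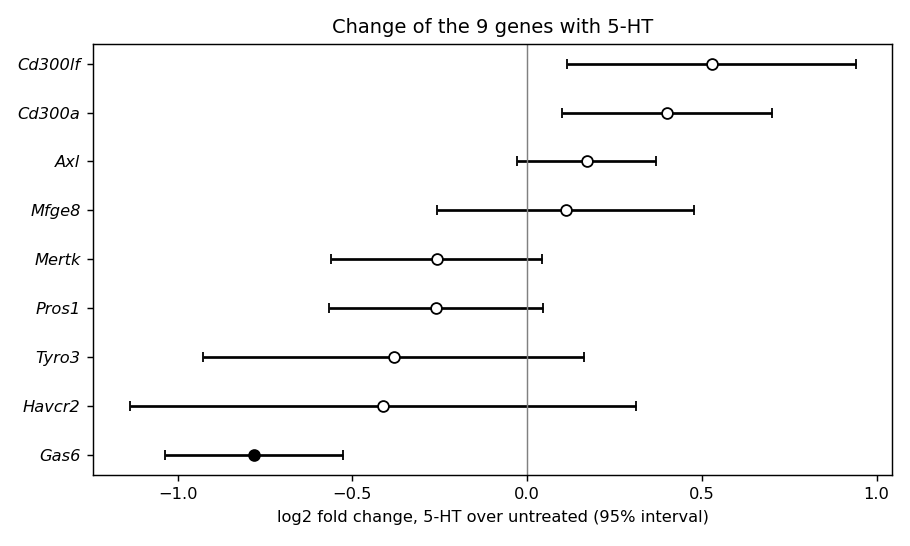
Log2 fold change of each of the 9 genes, 5-HT over untreated (horizontal axis), with its 95% interval from the edgeR fit over 3 against 3 libraries; the filled point is past an adjusted p of 0.05 and open points are not. Gas6, at -0.78, is the filled point, and the widest interval is that of Havcr2, from -1.14 to 0.31.

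By mean FPKM, the order in 5-HT libraries was Pros1, Mertk, Gas6, Axl, Mfge8, Cd300a, Cd300lf, Havcr2 and Tyro3. In untreated libraries it was Pros1, Gas6, Mertk, Axl, Mfge8, Cd300a, Havcr2, Cd300lf and Tyro3. In 5-HT libraries the neighbours Mertk and Gas6, and Cd300a and Cd300lf, overlapped and did not differ beyond their spread. In untreated libraries Cd300a overlapped with Havcr2 and Havcr2 with Cd300lf, while all other neighbours were apart in both groups. Averaged over the 6 libraries, Pros1, Gas6 and Mertk stood above 99.0%, 98.5% and 98.4% of all genes tested, and Tyro3 above 14.4%. Over the 9 genes, 4 log2 fold changes were positive and 5 negative, with a median of -0.26, beside a median of -0.02 over all genes tested.

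The genes are spread over 5 chromosomes, with Mertk and Tyro3 on chromosome 2, Axl and Mfge8 on chromosome 7, and Havcr2, Cd300a and Cd300lf on chromosome 11. Havcr2 (ENSMUSG00000020399) lies from 46454935 to 46481255, plus strand. Cd300a (ENSMUSG00000034652, from 114890041 to 114904654, plus strand) and Cd300lf (ENSMUSG00000047798, from 115116214 to 115133992, minus strand) are the outer genes of a stretch with 9 other protein-coding Cd300 genes between them. In the authors' deposited annotation, 5 of the 9 genes (Mertk, Axl, Tyro3, Gas6 and Mfge8) carry the term apoptotic cell clearance, and 25 tested genes carry it in all. Of those 25, 2 rose and 1 fell by edgeR, beside 4.55% of all genes tested that rose and 3.19% that fell. The 1 that fell was Gas6 itself.

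The libraries also differed in markers of other cells. The 15 Kupffer cell markers summed to between 1339 and 1594 FPKM in 5-HT libraries and between 823 and 1159 FPKM in untreated libraries, and 6 of 15 rose and 0 fell (median log2 0.70). The 14 endothelial markers summed to 4239, 3607 and 4925 FPKM in 5-HT replicates 1 to 3, against 4677, 4626 and 4704 FPKM in untreated replicates 1 to 3. Of these, 4 fell (Oit3, Ptprb, Kdr and Tek, with log2 fold changes from -0.82 to -0.74) and 1 rose (Lyve1, 1.79), with a median of -0.28. The 13 stellate cell and fibroblast markers summed to 81.6, 170 and 87.7 FPKM in 5-HT replicates 1 to 3, against 233, 142 and 223 FPKM in untreated replicates 1 to 3, and all 12 tested had negative log2 fold changes (median -0.97, with 1 past the threshold, Reln). Their most abundant members were Dcn and Ecm1. Both lists had a negative median, as Gas6, which both cell types can express, was lower, and their part in its fall was not tested. Neutrophil markers, led by S100a9 and S100a8, summed to 348 to 913 FPKM in 5-HT libraries and 142 to 173 FPKM in untreated libraries, with 5-HT replicate 2 highest, the library in which Mertk was lowest. Without that library the log2 fold change of Gas6 was -0.84 (edgeR adjusted p = 0.00951). The neutrophil sums of 5-HT replicates 1 and 3, 478 and 348 FPKM, were also above those of all untreated libraries. The part of neutrophils in the fall of Gas6 was not tested. Of 8 neutrophil markers tested, 5 rose and 0 fell, with a median of 1.67.

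**Figure D4:**
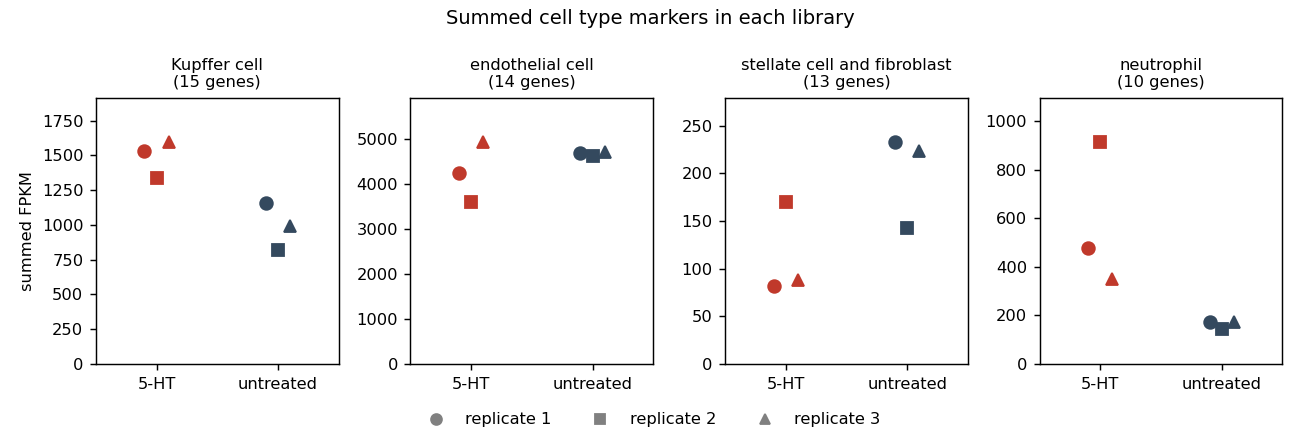
Summed FPKM (vertical axes, from 0, each panel with its own scale) of 4 cell type marker lists in the 5-HT libraries (red) and the untreated libraries (dark), with 1 marker shape per replicate number. Kupffer cell sums and neutrophil sums are higher in every 5-HT library than in any untreated one; the stellate cell sums overlap at replicate 2 of each group.

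The other lists covered further cells that a liver preparation can hold. Hepatocyte markers, led by Alb and Ahsg, summed to 523 to 1690 FPKM in 5-HT libraries and 650 to 961 FPKM in untreated libraries, and the dendritic cell markers, led by Clec9a and Zbtb46, to 66.0 to 78.1 FPKM in 5-HT libraries and 79.4 to 102 FPKM in untreated libraries. T and NK cell markers (Gzma and Nkg7 the most abundant) summed to 40.8 to 77.9 FPKM with 5-HT and 39.5 to 122 FPKM untreated. B and plasma cell markers (Jchain and Cd79a) summed to 92.0 to 353 FPKM with 5-HT and 91.0 to 156 FPKM untreated. Platelet markers (Pf4 and Itga2b) reached at most 8.29 FPKM with 5-HT and 28.1 FPKM untreated, with Gp1bb at 0 in every library, and cholangiocyte markers (Epcam and Krt19) at most 50.9 FPKM with 5-HT and 51.2 FPKM untreated. In these 6 lists and the monocyte list, 1 gene passed, Sdc1 of the plasma cells, which rose.

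By the profile over the 6 libraries, the genes most like Gas6 were Galnt10, Fbln2, Adgrg1, Arhgef10l and Sesn1. Likeness was the root mean square difference of centred log2(CPM + 1) values, and ran from 0.0641 for Galnt10 to 0.0933 for Sesn1. Genes averaging under 5 FPKM in both groups were left out. Galnt10, an enzyme that starts O-linked glycan chains, had 5.02, 6.08 and 5.30 FPKM in 5-HT replicates 1 to 3, against 10.1, 9.85 and 9.45 FPKM in untreated replicates 1 to 3. Sesn1, a stress-responsive inhibitor of mTORC1 signalling, had 12.0, 13.9 and 12.3 FPKM in 5-HT replicates and 24.0, 23.7 and 23.6 FPKM in untreated replicates. Their log2 fold changes lay between -0.89 and -0.69, as their choice by profile implies.

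Beyond the 9 genes, 138 other genes of apoptotic cell uptake and TAM signalling were examined in 10 lists, and 131 were tested. Of these, 11 rose (8.40%, beside 4.55% of all genes tested) and 3 fell (2.29%, beside 3.19%), by edgeR at an adjusted p under 0.05. The median log2 fold change was 0.13, and 117 did not pass. These shares depend on the level of the genes compared. Among genes averaging at least 5 FPKM in the higher group, 13 of 108 pathway genes rose and 3 fell. Of all 8235 genes tested at that level, 772 rose and 582 fell. The count over the 131 genes depended on single libraries: 4 rose and 1 fell without untreated replicate 1, 3 rose and 1 fell without untreated replicate 3, and 7 rose without 5-HT replicate 1. It was 17 risen without untreated replicate 2 and 5 fallen without 5-HT replicate 2. Of the 14 calls, those of Itgb3, Abca1, Vav3 and Siglece held in every fit that left out 1 library.

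Among other receptors for apoptotic cells, 3 of 14 rose and 0 fell, with a median of 0.16. Itgb3, the integrin subunit that pairs with Itgav to bind Mfge8, had 70.7, 59.4 and 89.8 FPKM in 5-HT replicates 1 to 3, against 18.3, 22.1 and 18.9 FPKM in untreated replicates 1 to 3. Every 5-HT library was far above every untreated one (log2 1.90, SE 0.17, edgeR adjusted p = 0.00165). Cd93, a C-type lectin-like receptor found on myeloid and endothelial cells, rose 1.91-fold, to 187 ± 20.4 FPKM with 5-HT, against 98.6 ± 10.8 FPKM untreated (SD, n = 3 each; edgeR adjusted p = 0.00685). The call was lost without untreated replicate 1 and without untreated replicate 3, with adjusted p up to 0.0511. Cd14, the endotoxin co-receptor that also binds dying cells, rose 1.62-fold (edgeR adjusted p = 0.0494). This call failed in 10 of 18 alternatives, among them every fit without 1 library except that without 5-HT replicate 3 (adjusted p up to 0.165).

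Of 14 other bridging molecules and opsonins, 1 rose, with a median of 0.32. It was Anxa1, annexin A1, a phosphatidylserine-binding protein that resolves inflammation. Its level was 41.7, 59.5 and 40.5 FPKM in 5-HT replicates 1 to 3, against 23.4, 19.7 and 25.2 FPKM in untreated replicates 1 to 3 (log2 1.06, SE 0.18, edgeR adjusted p = 0.0142). 5-HT replicate 2, the library with the highest neutrophil marker sum, was highest; neutrophils also express Anxa1, and their part was not tested. The call was lost without untreated replicate 1 and without untreated replicate 3, with adjusted p up to 0.0709.

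Of 18 engulfment genes, 1 rose and 1 fell, with a median of 0.02. Abca1, the cholesterol exporter that macrophages use after taking up cells, averaged 63.3 ± 10.1 FPKM with 5-HT and 26.3 ± 4.35 FPKM untreated (SD, n = 3 each; log2 1.27, SE 0.17, edgeR adjusted p = 0.00674). Vav3 averaged 6.14 ± 0.607 FPKM with 5-HT and 15.0 ± 1.61 FPKM untreated (SD, n = 3 each; log2 -1.29, SE 0.12, edgeR adjusted p = 0.00192). Groups of both genes did not overlap.

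**Figure D5:**
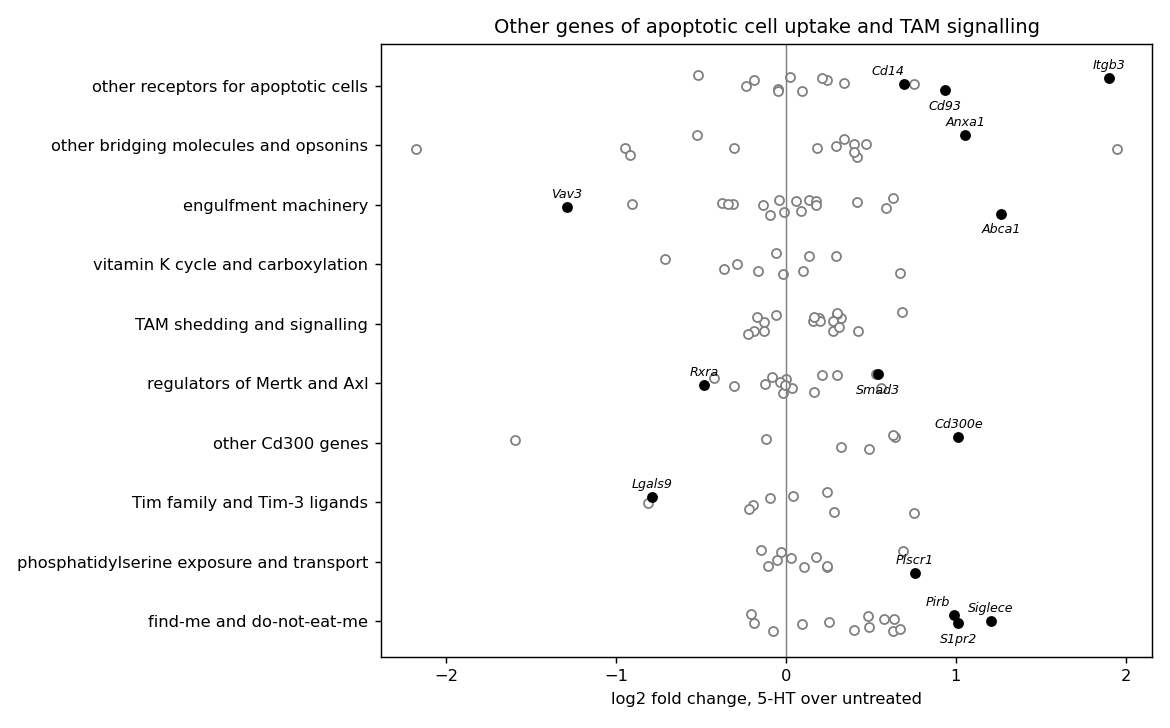
Log2 fold change, 5-HT over untreated (horizontal axis), of each tested gene in 10 lists around the 9 genes (rows); filled points with names are past an edgeR adjusted p of 0.05 and open points are not. The filled points reach from Vav3 at -1.29 to Itgb3 at 1.90.

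Genes that act directly on the TAM proteins were examined in 2 lists, whose edgeR counts stand beside 4.55% of all tested genes called higher and 3.19% called lower. Over all 16641 genes tested, an unadjusted edgeR p of 0.051 ranked 4045. DESeq2 called 1241 of all genes higher and 1018 lower, and limma on log2(FPKM + 1) 674 and 481. Of 10 tested genes of the vitamin K cycle and of vitamin K-dependent proteins, 0 passed by edgeR (1 at an unadjusted p under 0.05, 1 by DESeq2 and 0 by limma), with a median of -0.04. Ggcx, the carboxylase that Gas6 and protein S need, averaged 10.2 ± 1.27 FPKM with 5-HT and 10.4 ± 1.15 FPKM untreated (SD, n = 3 each; log2 -0.01, edgeR adjusted p = 0.962; chosen after its value was seen). Of 18 genes of receptor shedding and signalling, 0 passed by edgeR (5 at an unadjusted p under 0.05, 3 by DESeq2 and 0 by limma), with a median of 0.20. Adam17, the protease that sheds Mertk, averaged 19.9 ± 1.37 FPKM with 5-HT and 18.0 ± 1.70 FPKM untreated (SD, n = 3 each; log2 0.16, edgeR adjusted p = 0.364; chosen after its value was seen).

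Of 16 transcription factors listed as regulators of Mertk and Axl, 1 rose and 1 fell, with a median of -0.003. Rxra, the partner of the nuclear receptors LXR and PPAR, had 19.2, 19.9 and 21.5 FPKM in 5-HT replicates 1 to 3, against 29.6, 28.9 and 26.6 FPKM in untreated replicates 1 to 3 (log2 -0.48, SE 0.09, edgeR adjusted p = 0.0222). It no longer passed in 5 alternatives: without 5-HT replicate 1, untreated replicate 1 or untreated replicate 3 (edgeR adjusted p up to 0.105), with the replicate block (0.0659), and without replicate 2 of each group (0.0545). Smad3, a signal transducer of TGF-beta, averaged 15.2 ± 0.681 FPKM with 5-HT and 10.5 ± 0.600 FPKM untreated (SD, n = 3 each; log2 0.54, SE 0.08, edgeR adjusted p = 0.0111). It no longer passed without untreated replicate 1 or untreated replicate 3, with adjusted p up to 0.0709.

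Of 7 other Cd300 genes tested, 1 rose, and 5 had positive values, with a median of 0.49. Cd300e, an activating receptor of monocytes, had 10.97, 9.74 and 12.2 FPKM in 5-HT replicates 1 to 3, against 6.08, 4.62 and 5.63 FPKM in untreated replicates 1 to 3 (log2 1.02, SE 0.16, edgeR adjusted p = 0.0117). The groups did not overlap, and the call was lost without untreated replicate 3 (adjusted p = 0.0599, the highest over all alternatives). The Cd300 genes are paralogs, and how alike their sequences are was not examined. Reads may be split between paralogs that are close copies. Single Cd300 values, those of Cd300a and Cd300lf included, may be uncertain in this respect. Of the Tim family and the ligands of Tim-3, 1 of 9 fell and 0 rose, with a median of -0.10. It was Lgals9, which encodes galectin-9, the ligand of the Havcr2 product. Lgals9 had 68.9, 66.8 and 83.9 FPKM in 5-HT replicates 1 to 3, against 133, 123 and 126 FPKM in untreated replicates 1 to 3 (log2 -0.79, SE 0.12, edgeR adjusted p = 0.01). No library of one group reached the range of the other. The call was lost without untreated replicate 1 and without untreated replicate 3, with adjusted p up to 0.0558.

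Of 11 genes of phosphatidylserine exposure, 1 rose, with a median of 0.11. It was Plscr1, a scramblase-family gene that interferon induces, with 12.6 ± 1.83 FPKM with 5-HT and 7.47 ± 0.771 FPKM untreated (SD, n = 3 each; log2 0.76, edgeR adjusted p = 0.0184). It no longer passed without 5-HT replicate 1, untreated replicate 1 or untreated replicate 3, with adjusted p up to 0.0989. Of 15 genes that attract phagocytes to dying cells or restrain uptake, 3 rose and 0 fell, with a median of 0.49. Siglece, an inhibitory sialic acid receptor of myeloid cells, had 29.3, 31.7 and 26.1 FPKM in 5-HT replicates 1 to 3, against 13.1, 12.0 and 12.8 FPKM in untreated replicates 1 to 3 (log2 1.21, SE 0.10, edgeR adjusted p = 0.00164). Every 5-HT library was above every untreated one by a wide margin. Pirb, an inhibitory receptor for MHC class I, and S1pr2, a receptor for sphingosine 1-phosphate, rose with log2 fold changes of 0.99 and 1.01 (edgeR adjusted p = 0.0372 and 0.0496). Their calls were lost in 7 of 18 and 11 of 17 alternative fits, among them those without 5-HT replicate 1, 5-HT replicate 2, untreated replicate 1 or untreated replicate 3, with adjusted p up to 0.147 and 0.185; S1pr2 lost its call without 5-HT replicate 3 as well.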

How the data were processed

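The deposited table holds, per the file headers, a raw read count and an FPKM value for each gene and library; both were made by the authors. HISAT2 2.2.1, featureCounts 2.0.1 and mm10 are named in the submitters' processing notes without their roles, and whether reads were counted by strand is not stated in the sources used here. Of the deposited FPKM values of at least 1, 100% lay within 0.5% (or rounding of the second decimal) of counts divided by exonic length and by the column's total. Positions in the table differ from GRCm38 for all 9 genes, so those printed are from GENCODE M21, matched by identifier.

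Counts were tested with edgeR 4.0.16 in R 4.3.3 (TMM scaling, filterByExpr, quasi-likelihood test, two-sided) over 16641 genes with Benjamini-Hochberg adjustment and a threshold of 0.05. Standard errors were the log2 fold change over the root of its F statistic, and 95% intervals used the fit's degrees of freedom. Libraries of 1 group differed by a chi-square of 6.80 to 61.6 per degree of freedom over genes, so all 6 were kept as separate samples. The value of 6.80 was that of untreated replicates 1 and 3, and the other pairs ran from 25.5 to 61.6. Why these 2 libraries were more alike was not tested. The script was tested on simulated counts with known changes. It recovered 3 of 67 changes of 1.5-fold, 34 of 67 of 2-fold and 47 of 66 of 4-fold. Of its 91 calls, 7 were false. A change of 1.5-fold was thus seldom called in this test of the script. Among the 9 genes, a change of that size lay inside the 95% intervals of Tyro3, Havcr2, Cd300a and Cd300lf, which did not pass. It lay outside those of Mertk, Axl, Pros1 and Mfge8, which did not pass either. The interval of Axl, for example, was 0.981 to 1.29 of the untreated level. Some other genes that did not pass may still have changed by 1.5-fold. Alternatives covered the filter, scaling, DESeq2 1.42.0, limma 3.58.1 on log2(FPKM + 0.1, 1 or 5), sample weights, a replicate block and leaving out libraries. The genes named are the 9 members, up to 4 called genes per list, the 5 nearest profiles of each called member and the 2 most abundant markers per cell type. Ggcx and Adam17 are marked as exceptions. Also named outside this rule were Myd88 as the floxed gene and Tmem255b as an overlapping gene. Oit3, Ptprb, Kdr, Tek, Reln and Sdc1 were named as markers past the threshold, and Gp1bb as a marker without reads. The members and lists were chosen with earlier results of these data known. Motifs were searched on both strands of RefSeq windows.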

Additional observations from a re-analysis of the deposited data

How the results depend on the processing

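Gas6 kept its direction in all 18 alternatives (log2 -0.84 to -0.72) and its call in 17; it lost the call without untreated replicate 1 (log2 -0.77, edgeR adjusted p = 0.0507), and it held without 5-HT replicate 2 and untreated replicate 2 together, an alternative added after seeing the data (log2 -0.78, edgeR adjusted p = 0.00638). Cd300a passed with sample quality weights (log2 0.44, limma adjusted p = 0.0316) and without 5-HT replicate 3 (log2 0.52), and Cd300lf with sample quality weights (log2 0.59, limma adjusted p = 0.0301) and with the replicate block (log2 0.53, edgeR adjusted p = 0.0378). No sign changed among the 9 genes. Without 1 library in turn, log2 values of Cd300a ran from 0.32 to 0.52 and of Cd300lf from 0.40 to 0.68. The 9 genes gave 2 rises with sample quality weights, 1 with the replicate block, and 0 to 1 rises and 0 to 1 falls without 1 library. The 5 ratios stayed within 1 SD of their values in all 8 alternatives each. Of these 8, the ratio of counts over exonic length equals the FPKM ratio by construction, because the library's total cancels.

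Of the other pathway genes, 18 rose with no filter, 24 rose and 7 fell with DESeq2, 26 rose and 7 fell with sample quality weights, and 21 rose and 6 fell without replicate 2 of each group; leaving out 1 library gave 3 to 17 rises and 1 to 5 falls. Over all genes, DESeq2 called 1241 higher and 1018 lower, sample quality weights 1362 and 1253, and the fit without replicate 2 of each group called 1014 and 1038. Leaving out 1 library gave 218 to 672 higher and 111 to 675 lower. The fewest calls came without untreated replicate 1 (218 higher, 111 lower) and without untreated replicate 3 (220 higher, 116 lower). These were the 2 libraries most alike within a group, and the cause was not tested. Same-numbered libraries did not deviate together in all pairs (correlations of 0.0768, 0.121 and -6.72e-05). Differently numbered pairs ran from -0.172 to 0.131, a range that holds all the same-numbered values. With 3 libraries per group, this cannot settle whether same-numbered libraries share more than a number. With the replicate block, 542 genes were higher and 354 lower, and Gas6 had a log2 value of -0.78 (edgeR adjusted p = 0.0248). Scaling moved the median of all genes by under 0.1 on the log2 scale. Tyro3 had the fewest counts of the 9 genes, with 47 to 88 per library.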
